A study of Caenorhabditis elegans with 4 samples.

Results

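Weak regions in 3′ UTRs were the regions of the pooled CES-1 ChIP-seq list that lay on nuclear chromosomes, overlapped no peak of the reproducible (IDR) list, and had their summit, the point of highest enrichment, inside an annotated 3′ UTR and in no coding exon or 5′ UTR. The rule found 1235 such regions among 24333 weak nuclear regions, or 5.08%, and among 25493 regions of the pooled list. The libraries came from 1 group of 4 biological replicates of *Caenorhabditis elegans* strain OP174, collected whole as L4 larvae of both sexes. In this strain the integrated transgene wgIs174 supplies ces-1 with TY1, EGFP and FLAG tags next to an unc-119 marker, in an unc-119(ed3) background. There was no second condition, and a control library was not used here. For replicates 1 and 2 the labels give fragments of 150 to 350 bp and a stock centre as the source, whereas replicates 3 and 4 were sonicated with a microtip and came from the submitting laboratory. Preparation and source cannot be told apart.

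CES-1 is a zinc finger protein of the Snail family that binds DNA at E-boxes and is known for its part in deciding the death of sister cells of pharyngeal neurons. The 3′ UTR is the stretch of a gene between the stop codon and the end of the messenger RNA, and it is best known for sites that act in the RNA. In the compact worm genome the DNA of a 3′ UTR often lies close to the start of a downstream gene or faces the end of a gene on the opposite strand. Many neighbouring genes on one strand are also transcribed together as operons and separated by trans-splicing. A peak whose summit falls in a 3′ UTR therefore need not belong to the gene that owns the UTR.

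The sequences at the summits of strong regions give examples of these places. The first set follows the order of pooled signal from the strongest region, leaving out rpoa-2 and slc-25A46, whose sequences are not shown here although their signals are higher than that of bgnt-1.1. Each line gives 30 bases around a summit on the strand of the UTR, 5′ to 3′, in WBcel235 (ce11). Capitals mark AATAAA, the common poly(A) signal, which was present in 1 of the 8 stretches printed.
ZC190.5, V:8671966-8671995, minus strand: aatagttcAATAAAattgttaataattttc
kin-18, III:6123911-6123940, plus strand: cgaaactttaatcggtgctctcaacgttgt
F25B5.5, III:5943874-5943903, minus strand: gttgaaccttacacttcatagagtagttat
bgnt-1.1, IV:10478227-10478256, plus strand: aagtcgggtataaataagtgatttttcttg
R04E5.8, X:8801762-8801791, minus strand: ccatcaattctatacattttgtcatccttt
frh-1, II:5918426-5918455, plus strand: gttagataaccaaattttctcgcataattt
lin-40, V:3712565-3712594, plus strand: tcccgaatatttttattgatttattgttta
Y82E9BR.3, III:1419802-1419831, plus strand: gtataactctaagctcatcactatccctca
The second set shows 4 regions with CAGGTG, an E-box that Snail-family proteins are known to bind, within 50 bp of the summit. On the strand of the UTR it reads CACCTG in these stretches and stands in capitals.
lipl-4, V:6551915-6551944, plus strand: taaccactcggcCACCTGatcacggcaaaa
miro-1, IV:4712879-4712908, minus strand: tattctcgattaCACCTGtgtatctttttt
cccp-1, III:12484649-12484678, plus strand: cataaaccctgcCACCTGggaccctttgtt
egl-13, X:5673892-5673921, plus strand: gttcccattttcCACCTGgcaccagatctt

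The E-box was rare at these regions and about as frequent as in 3′ UTRs at large. CAGGTG, searched on both strands (CAGGTG or CACCTG) within 50 bp of the summit, was found at 18 of 1235 regions (1.46%). The same window held it at 1.41% of all 3′ UTR positions, taken every 10 bases away from IDR peaks, and at 2.22% of all other weak regions. The poly(A) signal AATAAA, searched on the UTR strand only, was within 50 bp of 255 summits (20.6%) and of 21.3% of 3′ UTR positions. GC content around the summits averaged 31.3%, against 31.2% at 3′ UTR positions, 34.6% at all other weak regions and 39.2% at weak coding-exon regions.

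The 4 CAGGTG regions shown above were not alike in their recurrence. At lipl-4, which encodes a lysosomal lipase, the motif lay 18 bp from the summit, the pooled signal was 23.2, and 1 library had a region there. At miro-1, a mitochondrial GTPase gene, the motif was 29 bp from the summit, the signal was 17.4, and all 4 libraries had a region. At cccp-1, a gene of dense-core vesicle biology, the distance was 36 bp, the signal was 17.4, and 3 libraries had a region. At egl-13, which encodes a SOX factor, the motif lay 1 bp from the summit, the signal was 15.5, and 0 libraries had a region. Over the 18 regions with CAGGTG the median signal was 13.6 and 6 were found in at least 3 libraries. The 1217 regions without it had a median signal of 14.2, and 33.9% of them were found in at least 3 libraries.

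3′ UTRs held more weak regions per base than the genome as a whole. The 1235 summits fell in 3.32 Mb of 3′ UTR, or 371 per Mb, against 243 weak regions per Mb of nuclear genome, a ratio of 1.53. Weak summits were sparser in coding exons, at 127 per Mb, and in introns, at 249 per Mb. They reached 302 per Mb between genes and 328 per Mb in 5′ UTRs. The excess was present in each library's own list of 30000 regions. Of the regions that overlapped no IDR peak, 4.37%, 4.55%, 4.79% and 5.03% in replicates 1 to 4 had their summit in a 3′ UTR, where 3.32% of the genome lies. The ratio to the genome share was 1.41 ± 0.09 (SD, n = 4) and above 1 in 4 of 4 libraries, while that of coding exons was 0.74 ± 0.12 (SD, n = 4).

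The regions were spread over all 6 nuclear chromosomes, with chromosome III the densest. Chromosome III held 240 of them, or 458 per Mb of 3′ UTR, which was 1.80 times its density of all weak regions. The X chromosome held 213, or 344 per Mb, and had the lowest ratio, 1.23. The other ratios lay between 1.45 on chromosome II and 1.61 on chromosome IV.

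The name 3′ UTR describes the summit better than the whole region. Every pooled region was 344 bp wide with its summit in the middle, and 672 of the 1235 lay in a UTR longer than that. On average 73.1% of a region's bases were 3′ UTR, 12.9% were coding exon and 11.1% lay between coding genes. Only 334 regions (27.04%) were wholly inside 3′ UTR, and 649 (52.6%) reached into a coding exon. Where a library had an overlapping region, its summit was a median of 73, 65, 101 and 57.5 bp from the pooled summit in replicates 1 to 4. These distances were below 379 bp, the median length of the UTRs that held the summits. The pooled summits lay a median of 186 bp past the stop codon and 135 bp before the end of the UTR. A summit near an edge can leave the UTR with such a shift, also where the UTR is long. At hlh-30, with a UTR of 1130 bp, the strongest region's summit lay 36 bp before the end. UTRs of up to 72 bp belonged to 40 of the host genes, and UTRs of 73 to 131 bp to 120. How many library summits lay outside the UTR is not given here. At 1146 summits no annotated gene other than the owner of the UTR overlapped the point. The 3′ UTRs of more than 1 gene held 37 summits, and genes other than the owners of the UTR overlapped the other 52. Among these a protein-coding gene overlapped 31 summits, a non-coding RNA gene 18, a tRNA gene 3, a snoRNA gene 2 and a piRNA gene 2. No such counts are given here for 3′ UTR positions at large, so these numbers have no background.

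In strength these regions resembled weak regions elsewhere. Their pooled signal, a score given by the submitters with no stated scale, had a lowest value of 10.2, a lower quartile of 12.05, a median of 14.2, an upper quartile of 17.7 and a highest value of 43.6. The median of all other weak regions was 13.95. Weak coding-exon regions had a lower median, 13.04, intronic regions 13.7, and intergenic regions 14.5. The lists are deposited once, so these medians have no replicate error. The upper end was set by the rule, since the strongest member had a signal of 43.6 and the lowest nuclear IDR peak one of 44.2. Just outside the rule stood the IDR peak in the 3′ UTR of cept-2, with 44.3, the lowest of 16 IDR peaks with a 3′ UTR summit. The highest of those was at msa-1, with 149.

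**Figure D1:**
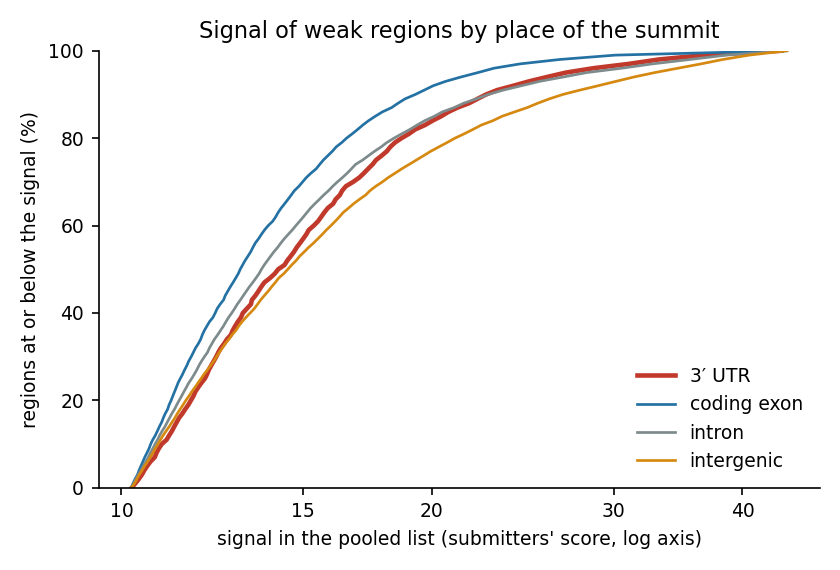
Share of weak pooled regions at or below each signal value, by the place of the summit; the x axis is the submitters' signal score on a log scale, the y axis is in percent, and each line is 1 annotation class. The 3′ UTR line (median 14.2) lies to the right of the coding-exon line (13.04), runs close to the intergenic line (14.5) at low signal and lies to its left at high signal.

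Few of these regions carried a small q-value in the pooled list. A q-value under 0.05 was given to 48 of 1235 (3.89%), against 6.05% of all other weak regions. In single libraries the share of 3′ UTR regions with such a q-value was 37.5%, 15.3%, 30.4% and 4.63% in replicates 1 to 4. Other regions of the same lists gave 37.2%, 17.7%, 25.9% and 3.30%. This share varied more between libraries than between places of the summit.

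Most of these regions were seen in only some of the libraries. A region of replicate 1 overlapped 575 of the 1235 (46.6%), one of replicate 2 overlapped 681 (55.1%), one of replicate 3 overlapped 614 (49.7%) and one of replicate 4 overlapped 740 (59.9%). Windows of the same width placed on any 3′ UTR position were overlapped at 23.8%, 24.6%, 26.3% and 27.8% in the same order. The pooled list was made from the reads of these libraries, so the gap between both sets describes agreement within the same data. Counted over libraries, 46 regions were found in none, 294 in 1, 476 in 2, 312 in 3 and 107 in all 4. The 107 make up 8.66%, and the background among all other weak regions was 8.46%, so recurrence in all 4 libraries was near that of weak regions in general.

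Set against other classes, the 3′ UTR regions recurred more often than weak coding-exon regions in every library, and the comparison with intergenic regions depended on the library. Coding-exon regions were found at 41.8%, 43.5%, 40.7% and 50.3% in replicates 1 to 4, which left differences of 4.72, 11.6, 8.99 and 9.65 percentage points in favour of 3′ UTRs (8.75 ± 2.92, SD, n = 4). Intronic regions were found at 44.4%, 53.3%, 42.7% and 55.3%, with differences of 2.17, 1.86, 7.03 and 4.62 points (3.92 ± 2.41, SD, n = 4). Both differences were positive in 4 of 4 libraries and had p = 0.125 in the exact two-sided sign-flip permutation test, the smallest value that 4 libraries allow, and an adjusted p of 0.4375 over 7 tests. Neither passes the threshold of 0.05, which this design cannot reach. The classes were not matched on pooled signal, with which recurrence rose. The median signal was 14.2 for 3′ UTR, 13.04 for coding-exon and 13.7 for intronic regions. When a match needed summits within 100 bp of each other, the mean differences were 4.60 points for coding exons and 1.29 points for introns, and the latter was no longer positive in every library (p = 0.375, exact permutation test).

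Intergenic regions were found at 49.96% and 60.2% in replicates 1 and 2, above the 3′ UTR regions, and at 43.5% and 57.1% in replicates 3 and 4, below them. The differences were −3.40, −5.09, 6.22 and 2.80 points, with a mean of 0.13 ± 5.29 (SD, n = 4) and p = 1 in the exact sign-flip permutation test. Against all other weak regions, found at 47.4%, 55.7%, 43.1% and 55.5%, the differences were −0.88, −0.56, 6.66 and 4.43 points. Their mean of 2.41 ± 3.73 (SD, n = 4) was smaller than its spread, with p = 0.5 in the exact permutation test and an adjusted p of 0.7. Where a library did have an overlapping region, its median percentile by signal within that library (100 being the strongest) was 64.8, 60.8, 64.6 and 65.8 for 3′ UTR regions and 65.8, 66.9, 62.2 and 64.6 for all other weak regions. The mean difference of −0.85 ± 3.79 percentile points had p = 0.875 in the exact permutation test and an adjusted p of 1 (n = 4).

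**Figure D2:**
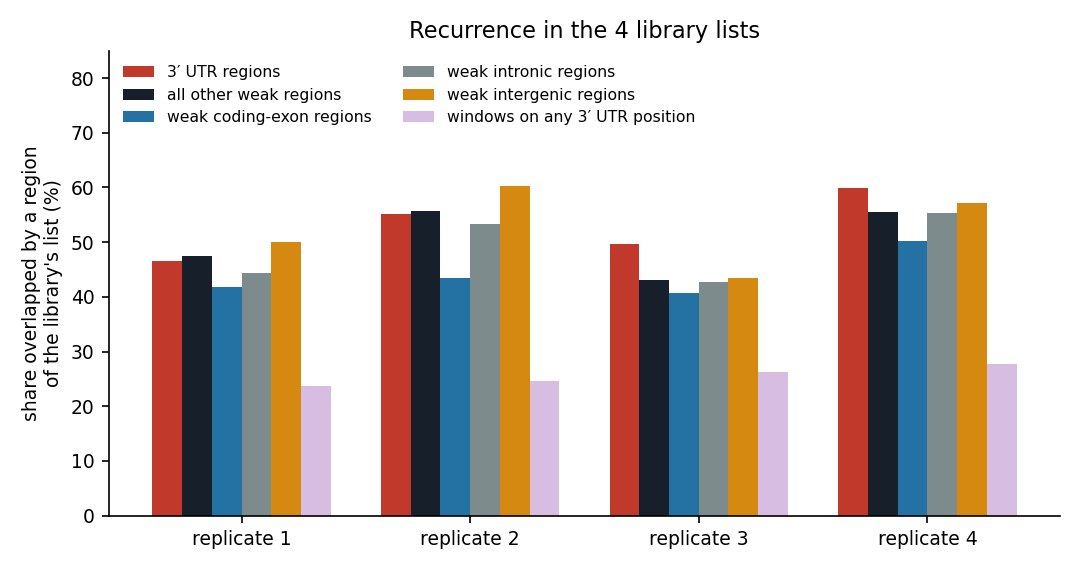
Share of regions of each class that a region of the library's list overlaps by at least 1 bp, in percent, for replicates 1 to 4; each bar is 1 class in 1 library. The 3′ UTR bars (46.6% to 59.9%) stand above the coding-exon and intronic bars in all 4 libraries, and above the intergenic bars in replicates 3 and 4 but not in replicates 1 and 2.

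Pooled regions can overlap each other, and 188 of the 3′ UTR regions (15.2%) overlapped another pooled region, against 11.2% of all other weak regions. Such neighbours can match the same library region, which counts for both. Among the 1047 that overlapped no other pooled region, 44.1%, 52.2%, 47.7% and 57.2% were found in replicates 1 to 4, beside 45.3%, 53.6%, 41.5% and 53.1% of other weak regions chosen the same way. The order of both sets in each library was that of the full lists.

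Recurrence rose with pooled signal. Of 303 regions with a signal from 10 to 12, 47 were found in at least 3 libraries (15.5%). The share was 22.5% of 400 regions from 12 to 15, 42.04% of 333 from 15 to 20 and 65.0% of 157 from 20 to 30. Above 30 it was 40 of 42 (95.2%). Other weak regions gave 11.7%, 19.2%, 36.4%, 66.2% and 91.6% in the same bins, a like course. All 46 regions found in no library had a signal under 20. The pooled score and the library lists rest on the same reads, so this course is a property of the lists.

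Within single libraries, whose regions did not enter the pooled rule, strong regions fell into 3′ UTRs more often than weak ones in replicates 3 and 4. Cut into 3 parts of equal size by signal, the strongest part of the regions outside IDR peaks had 3′ UTR summits at 4.43%, 4.53%, 5.43% and 5.64% in replicates 1 to 4. The weakest part had them at 4.38%, 4.65%, 4.00% and 4.32%. The differences were 0.05, −0.11, 1.43 and 1.31 points (0.67 ± 0.81, SD, n = 4), with p = 0.375 in the exact permutation test and an adjusted p of 0.7. The median signal of 3′ UTR regions differed from that of the other regions of the same list by 0.69%, −2.15%, 6.29% and 4.96% in the same order.

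The strongest region, with a pooled signal of 43.6, lay at V:8671809-8672152 over the 53 bp 3′ UTR of ZC190.5, a gene on the minus strand that faces the end of ZC190.4. It ranked 2683, 8493, 3775 and 1535 among the 30000 regions of replicates 1 to 4, so its standing in replicate 2 was the lowest. The next, with 43.5, lay in the 541 bp 3′ UTR of kin-18, which encodes a kinase of the TAO family, at III:6123754-6124097 and 400 bp past the stop codon. Its ranks were 4054, 1735, 310 and 953. The end of kin-18 faces that of mvk-1.

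F25B5.5, on chromosome III at 5943717 to 5944060, had a pooled signal of 43.2 and ranks of 1105, 2310, 290 and 1376, so that it stood at percentile 92.3 or higher in every list. The nearest other 5′ end was that of the polyubiquitin gene ubq-1, 2903 bp away on the opposite strand. rpoa-2, which encodes a subunit of RNA polymerase I, had 41.97 and the most even standing of the 12 strongest, at ranks 1114, 1033, 1383 and 590. A second region in the same UTR, with a pooled signal of 23.4, matched the same library regions and has the same ranks, so it adds no separate observation.

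Several strong regions stood at very different ranks in different libraries. At R04E5.8 on the X chromosome, in a UTR of 1065 bp, the pooled signal was 39.9 and the ranks were 6472, 433, 18098 and 2473. At lin-40, a gene of the NuRD chromatin complex, the signal was 38.5 and the ranks were 8966, 22346, 4903 and 269. Y82E9BR.3, with 38.4, ranked 1189, 8141, 23899 and 367. At hlh-30, the worm counterpart of the lysosome regulator TFEB, the signal was 37.1 and the ranks were 416, 20586, 1072 and 10000. The lowest standing was that of replicate 2 at lin-40 and hlh-30 and that of replicate 3 at R04E5.8 and Y82E9BR.3.

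frh-1, which encodes frataxin, had the fewest libraries among the 12 strongest. Its region, with a pooled signal of 38.6, was matched at rank 894 in replicate 2 and 2820 in replicate 4 and by no region of replicates 1 and 3. The summit lay 312 bp past the stop codon of frh-1 and 206 bp upstream of ptp-2, which encodes an SHP-type tyrosine phosphatase on the same strand. bgnt-1.1, with 41.9, had ranks of 3648, 10045, 1475 and 453. Its end faces that of egl-21, which encodes a carboxypeptidase that processes neuropeptides.

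**Figure D3:**
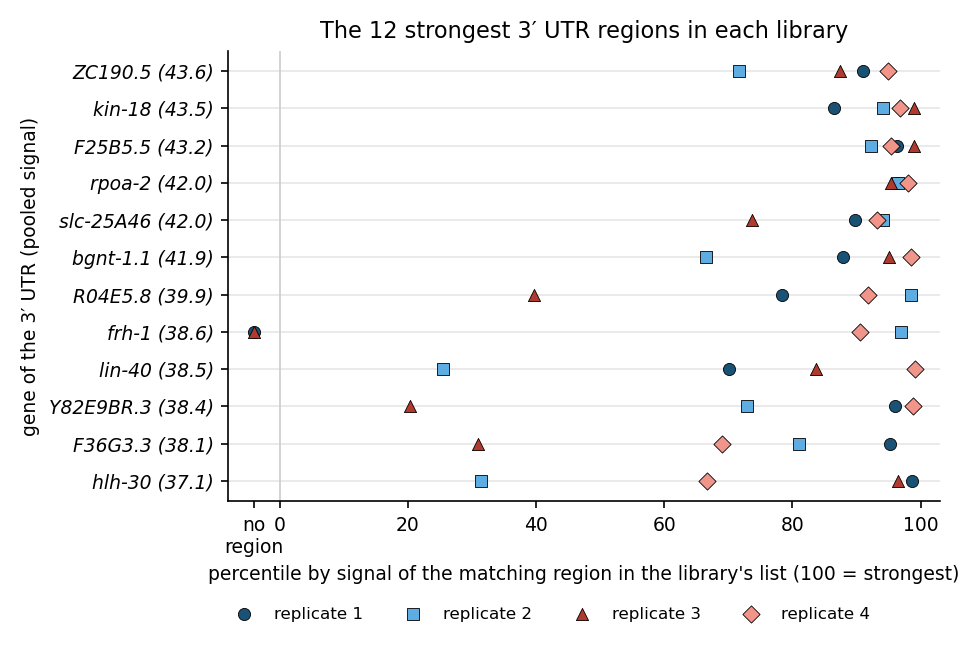
Percentile by signal, within each library's list, of the region that matches each of the 12 strongest 3′ UTR regions; 100 is the strongest, each marker is 1 library, rows are ordered by pooled signal (in brackets), and markers at the left edge show that the library had no region. kin-18, F25B5.5 and rpoa-2 stay above 86 in all 4 libraries, while frh-1 has no region in replicates 1 and 3, whose markers overlap there.

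Regions with a high rank in every library had both high and low pooled signals. The rank is that of the strongest library region that overlaps by at least 1 bp, and its summit can lie elsewhere. Averaged over libraries, 52.8% of members had an overlapping region and 33.3% one with a summit within 100 bp. Among regions found in all 4 libraries, 5 of the 12 with the best worst rank had a signal above 30. The 12 also included ztf-13 on the X chromosome, whose pooled signal was only 11.7 and whose ranks were 1960, 2161, 6059 and 356. F55D12.5, with 15.4, ranked 4415, 3858, 724 and 933. dos-3, which encodes a protein related to Notch ligands, had 34.1 and ranks of 568, 1554, 2642 and 1126. hrpa-2, an hnRNP gene, had 35.3 with ranks of 5477, 6647, 888 and 1640, and mef-2, a MADS-box factor gene, had 23.1 with ranks of 5540, 4173, 2749 and 3261. M01H9.5 and M01H9.3 face each other and shared their library regions, at ranks 3825, 3846, 3299 and 4853, so these 2 members are 1 place in the libraries.

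3′ UTRs are often close to the start of the next gene, and the weak regions lay about as close as 3′ UTR positions do in general. The 5′ end of another protein-coding gene lay within 500 bp of 222 summits (17.98%). The background over all 3′ UTR positions was 17.5%. In the libraries' own 3′ UTR regions the share was 18.95%, 18.9%, 17.4% and 16.6% in replicates 1 to 4, which differs from that background by 1.42, 1.38, −0.16 and −0.89 points. The mean difference was 0.44 ± 1.15 points (SD, n = 4), with p = 0.5 in the exact sign-flip permutation test and an adjusted p of 0.7. The median distance was 1950 bp, with quartiles of 769 and 3571.5 bp, against 1820 bp for 3′ UTR positions. Counting genes of any type, 25.1% of summits and 24.8% of positions were within 500 bp.

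**Figure D4:**
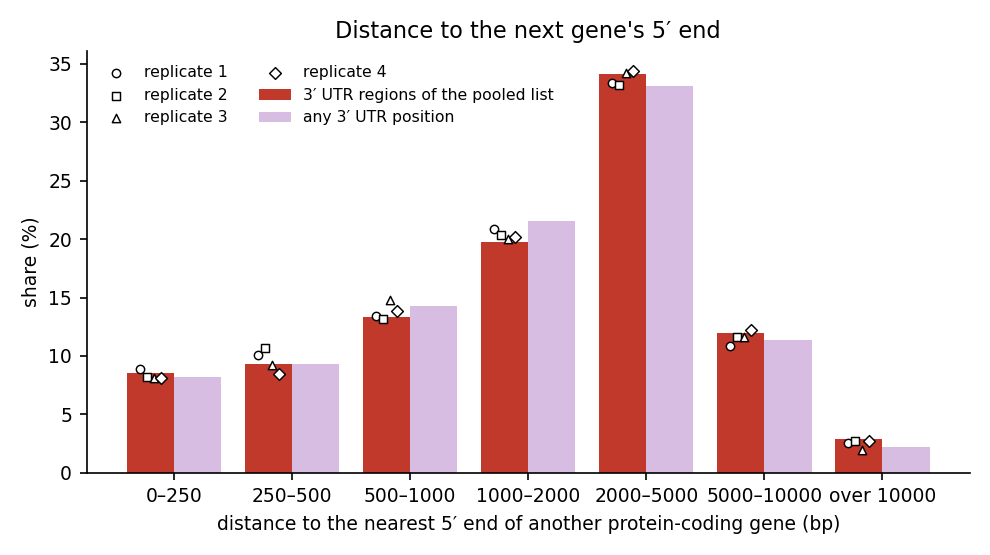
Share of summits by distance to the nearest 5′ end of another protein-coding gene, in percent; red bars are the 1235 pooled 3′ UTR regions, pale bars all 3′ UTR positions taken every 10 bases, and open markers the 3′ UTR regions of each library's list. In the 2 bins up to 500 bp the bars are 8.58% and 9.31% for the regions and 8.23% and 9.28% for the positions.

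The promoter window of another gene, from 1000 bp upstream to 200 bp downstream of a 5′ end, held 338 of the summits (27.4%), against 28.6% of 3′ UTR positions. Median signals were also compared by distance. The 222 within 500 bp had a median signal of 14.1, the 408 at over 500 and up to 2000 bp one of 13.6, and the 605 farther away one of 14.6. In the same order 31.98%, 32.6% and 35.5% were found in at least 3 libraries. Pooled regions are no replicates, so these differences have no test.

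The start of a same-strand next gene lay up to 500 bp downstream of 206 of the 1235 summits (16.7%), against 16.4% of positions. Among the 654 summits whose next gene was on the same strand this was 31.5%, against 28.5% of such positions. The 6 strongest were at frh-1, Y47G6A.9, mstr-1, T08B2.15, mai-1 and drap-1. The region in Y47G6A.9 had a pooled signal of 35.5 and a summit 398 bp upstream of crn-1, which encodes a FEN-1-type nuclease that acts in the DNA breakdown of dying cells. Its ranks were 1626, 1400, 8276 and 12155. In mai-1, which encodes a relative of the mitochondrial ATPase inhibitor and shares a well-studied operon with the glyceraldehyde-3-phosphate dehydrogenase gene gpd-2, the signal was 33.2. The summit lay 202 bp upstream of gpd-2, and the ranks were 1977, 6434, 5250 and 8977.

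In T08B2.15 the signal was 33.9, the summit lay 218 bp upstream of rbm-5, an RNA-binding protein gene, and the ranks were 2057, 645, 8816 and 14466. Replicates 1 and 2 ranked this region and the one in Y47G6A.9 higher than replicates 3 and 4 did. In mstr-1 the signal was 34.05, with the summit 99 bp upstream of kin-14, and ranks of 2206, 1052 and 200 in replicates 1, 2 and 4. In drap-1, whose product is related to a transcriptional corepressor subunit, it was 32.2, with cal-7 145 bp downstream and ranks of 1202, 4912 and 10308. No region of replicate 3 overlapped either of these regions. Another mstr-1 region, which overlaps the first in the same UTR and has a signal of 18.2, was found in all 4 libraries. Its ranks were 4896, 1052, 196 and 200, and those of replicates 2 and 4 are shared with the first region. Replicate 3 thus had a strong region in the mstr-1 UTR.

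A larger share of the regions than of 3′ UTR positions lay where the neighbouring gene ends toward the UTR. The next gene downstream was convergent for 580 regions (46.96%) and on the same strand for 654 (53.0%), against 42.4% and 57.5% of 3′ UTR positions. The libraries' own regions were convergent at 44.7%, 44.5%, 44.99% and 47.2%, above 42.4% in 4 of 4 libraries. The convergent regions had a median pooled signal of 14.6 and the same-strand ones 13.8. In single libraries the medians, on each list's own scale, were 4.13 and 4.00 in replicate 1, 5.03 and 4.76 in replicate 2, 3.801 and 3.853 in replicate 3, and 6.43 and 6.23 in replicate 4, so replicate 3 had the opposite order. The summit lay in UTRs of both strands at once in 35 cases (2.83%), against 2.30% of positions. The convergent share was looked at after the data were seen and has no test.

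The regions lay in longer UTRs and further from the stop codon than 3′ UTR positions in general. The median length of the UTR was 379 bp, against 315 bp for positions, and 354, 340, 349 and 364 bp for the regions of replicates 1 to 4. The summit was a median of 186 bp past the stop codon and 135 bp before the end of the UTR, where positions gave 128 and 132 bp. On a scale from the stop codon to the end of the UTR the median summit stood at 56.6%, and the median position at 49.3%. The rule took no summit that lies in a coding exon of any gene, for regions and positions alike.

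Peaks that passed IDR were seldom close by. An IDR peak lay within 1 kb of 22 regions (1.78%), against 3.35% of all other weak regions and 2.29% of weak coding-exon regions. The median gap was 32.1 kb, about that of weak intronic (32.1 kb) and intergenic regions (32.6 kb), and 36.3 kb for coding-exon regions. The 22 had a median signal of 15.04, and 9 of them were found in at least 3 libraries.

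By gene, 1195 of 16794 protein-coding genes with an annotated 3′ UTR held at least 1 of the regions, a background of 7.12% against which the gene groups below are read. The libraries' own lists gave 7.31%, 7.58%, 7.90% and 8.36%. UTR length moved with this share. In 4 classes of similar size, from 4142 to 4257 genes, it was 0.94% for the shortest UTRs (up to 72 bp), 2.90% and 6.28% for the next and 18.4% for the longest (from 258 bp). Per Mb of UTR the numbers were 200, 290, 341 and 367, so the density also rose, though less. The median UTR was 366 bp for the genes with a region and 131 bp over all.

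Most genes had a single region. There were 1127 genes with 1, 60 with 2, 7 with 3 and 1 with 4. The gene with 4 was W06H8.6, whose UTR spans 2796 bp and whose regions had signals of 15.9, 17.9, 26.1 and 23.1, that of 26.1 being found in all 4 libraries. Genes with 3 included mdt-15, a Mediator subunit gene of lipid metabolism, with signals of 12.8, 15.1 and 17.6 over 1665 bp of UTR. They also included pkc-1, a protein kinase C gene, with 12.5, 10.8 and 11.5, smg-3, a gene of nonsense-mediated decay, with 13.5, 21.3 and 14.4, and the chaperone gene dnj-20, with 11.6, 23.01 and 11.1. The 3 regions of dnj-20 shared their library regions, at ranks 6157, 4126 and 10527 in replicates 1, 2 and 4. These 3 members are 1 place in the libraries.

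Genes with a region in the 3′ UTR more often had an IDR peak in their own promoter. The share was 65 of 1195 (5.44%), and the background over all genes with an annotated UTR was 3.00%. Hosts taken from the library lists gave 5.95%, 5.42%, 5.28% and 5.84% (5.62 ± 0.32, SD, n = 4), above the background in 4 of 4 libraries. UTR length moved with this too. Among genes with the longest UTRs, 7.13% of those with a region and 5.44% of all had a promoter peak. In the class of UTRs from 132 to 257 bp the order was turned, at 1.52% (4 of 264 genes) and 2.88%. From 73 to 131 bp it was 3.33% (4 of 120 genes) and 2.41%, and up to 72 bp it was 2 of 40 genes and 1.27%. A weak region in the own promoter window was present at 53.9% of host genes and 37.7% of all genes. This share also moved with UTR length. From the longest to the shortest class it was 59.1%, 47.7%, 44.2% and 22.5% of hosts, against 48.4%, 40.3%, 34.3% and 27.9% of all genes. The order was thus turned in the shortest class (9 of 40 hosts).

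The gene groups differed widely, with neuronal release and membrane traffic genes at the upper end and collagens, lectins, chemoreceptors and F-box proteins at the lower end. Of 27 lists, 11 lay above 7.12%. In the libraries' own lists, 5 lay above the share of all genes in 4 of 4 libraries and 8 at or below it in 4 of 4. No list was tested, and UTR length is given beside each because it moved with the share.

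Genes of synaptic release had the highest share, 13 of 52, with a median UTR of 386 bp, and 14, 12, 8 and 13 of 52 in replicates 1 to 4. Per Mb of UTR they held 559 regions, against 344 over all genes. The strongest was at unc-46, which helps to sort the GABA transporter to vesicles, with a signal of 31.0 and ranks of 4640, 3855 and 3422 in replicates 1, 2 and 4. Its summit lay 16 bp upstream of C04F5.2. The next was at unc-108, the worm Rab2 gene, with 30.8 and ranks of 28365, 3964, 19498 and 1420, far apart between libraries. Others were at the calcium channel genes egl-19 (22.3) and unc-2 (15.1), the tomosyn gene tom-1 (17.02), the liprin gene syd-2 (15.1), the synaptotagmin gene snt-3 (14.4) and rab-3 (13.1). The acetylcholine transporter gene unc-17, with 10.6, and aex-3, with 10.5, were close to the lower end of the pooled list.

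Small GTPases and membrane traffic genes followed with 20 of 102 (19.6%), a median UTR of 243.5 bp and 619 regions per Mb of UTR. Their share was 15.7%, 15.7%, 15.7% and 16.7% in replicates 1 to 4. The strongest was at rab-11.1, a gene of recycling endosomes, with 28.1 and ranks of 4300, 10756 and 498 in replicates 2 to 4. rho-1, which encodes RhoA, had 2 regions in a 1211 bp UTR, with 25.7 and 16.8. Both matched the same library regions, at ranks 2107, 6288 and 9371 in replicates 1, 2 and 4, so the weaker adds no separate observation. The coat protein gene sec-31 (15.5) was found in all 4 libraries. The lists overlap, since rab-3 is in both.

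Splicing and RNA-binding genes had 10 of 70 (14.3%) at a median UTR of 241 bp, and 13, 9, 7 and 11 of 70 in replicates 1 to 4. Beside hrpa-2 they included hrpa-1, also an hnRNP gene, with 23.6, the splicing factor gene prp-19 with 20.6, and etr-1 with 15.6, which was found in 4 libraries. Per Mb of UTR this list held 318 regions, below the 344 of all genes. V-ATPase genes, which encode the vesicle proton pump, had 3 of 19 (15.8%) at a median UTR of 347 bp. These were vha-13 with 19.2, vha-16 with 16.4 and unc-32 with 11.1.

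Among transcription factors, homeobox genes had 11 of 91 (12.1%), above all genes in 3 of 4 libraries. ceh-8 was the strongest, with 35.2 and ranks of 1999, 10519 and 1076 in replicates 2 to 4, followed by unc-30, which specifies GABA neurons, with 20.2, and the Hox gene lin-39 with 18.1. Nuclear hormone receptors had 19 of 250 (7.6%), near the background, among them daf-12 with 19.1, nhr-49 with 18.3 and nhr-23 with 13.8. Helix-loop-helix genes had 2 of 40, hlh-30 and mxl-3, the latter with 16.96.

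Among genes tied to CES-1 or to cell death, 4 of 34 held a region (11.8%), above all genes in 2 of 4 libraries. ced-5, an engulfment gene, had 17.9 and ranks of 3032, 10872 and 6524 in replicates 1, 2 and 4. ced-10, the Rac gene of the same pathway, had 16.8 and a region in replicate 4 alone, at rank 7923. The nuclease gene crn-4 had 12.1, and tra-1, the terminal regulator of sex determination, had 11.5. The 3′ UTRs of ces-1 itself (125 bp) and of the homeobox gene unc-42 (111 bp) held 0 of the regions, in the pooled list and in each library list.

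Chaperone genes had 6 of 61 (9.8%), led by dnj-23 with 30.7 and ranks of 299, 694, 10207 and 751, within the first 751 of 30000 regions in 3 of 4 libraries. Germline genes had 7 of 72 (9.7%), all with a signal under 16, the highest being mes-3 with 15.7. Oxidative phosphorylation had 5 of 69 (7.2%) and neuropeptides and insulins 10 of 142 (7.0%), both near the background. nlp-18 was the strongest neuropeptide gene, with 31.2 and ranks of 2965 and 5707 in replicates 2 and 4 only. Histone genes had 3 of 17, all linker histones, hil-5 with 20.4, hil-4 with 15.6 and hil-1 with 13.1. The share of histone genes in the libraries' own lists was 17.6% in replicate 1 and 0, 5.88 and 5.88% in the others. No region of replicate 1 overlapped the regions at hil-5, hil-4 and hil-1, so its share came from other histone genes.

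Body wall muscle genes had 3 of 49 (6.1%) in the pooled list yet 12.2%, 8.16%, 14.3% and 18.4% in the libraries' own lists, above all genes in 4 of 4. Their median UTR was 288 bp, against 131 bp over all genes. Per Mb of UTR they held 144 pooled regions, below the 344 of all genes. lev-11, the tropomyosin gene, had 24.98 and ranks of 2110, 6977, 15465 and 3787. Ion channels and transmitter receptors had 10 of 214 (4.7%). twk-4, a potassium channel gene whose UTR shares its summit with sym-2, had 25.2, and irk-3, an inward rectifier gene, had 18.1 and was found in all 4 libraries. Translation factors had 3 of 70, cell cycle and replication 3 of 59, mitochondrial ribosomal proteins 3 of 69 and the proteasome 1 of 33. In replicates 1 to 4 translation factors had 7, 10, 8 and 5 of 70, and cell cycle and replication 9, 4, 13 and 6 of 59. The proteasome had 1, 5, 3 and 4 of 33. Each of these lists was above all genes in 3 of 4 libraries, unlike in the pooled list. Their median UTRs were 202.5, 224 and 180 bp in that order. Per Mb of UTR they held 135, 208 and 149 pooled regions, below the 344 of all genes. Mitochondrial ribosomal proteins, with 3, 5, 3 and 1 of 69, were above all genes in 0 of 4.

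Groups with short UTRs held few regions. Cytosolic ribosomal protein genes had 3 of 80 (3.75%) at a median UTR of 56.5 bp, namely rps-13 with 20.8, rps-18 with 18.6 and rps-12 with 15.5. Chemoreceptors had 14 of 470 (3.0%) at 75 bp, detoxification enzymes 5 of 177 (2.8%) at 76 bp, F-box, MATH and BTB proteins 9 of 342 (2.6%) at 75 bp, cuticle collagens 3 of 156 (1.9%) at 66 bp and C-type lectins 2 of 177 (1.1%) at 64 bp. All 6 were at or below the share of all genes in 4 of 4 libraries. Intestine genes had 0 of 47 at 90 bp, and Snail, ZEB and related factor genes 0 of 4 (1, 0, 1 and 0 of 4 in replicates 1 to 4). Per Mb of UTR the ribosomal protein genes held 514 regions, above all genes, while lectins held 102 and collagens 214. In whole larvae a region bound in few cells and one bound weakly in many cannot be told apart.

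**Figure D5:**
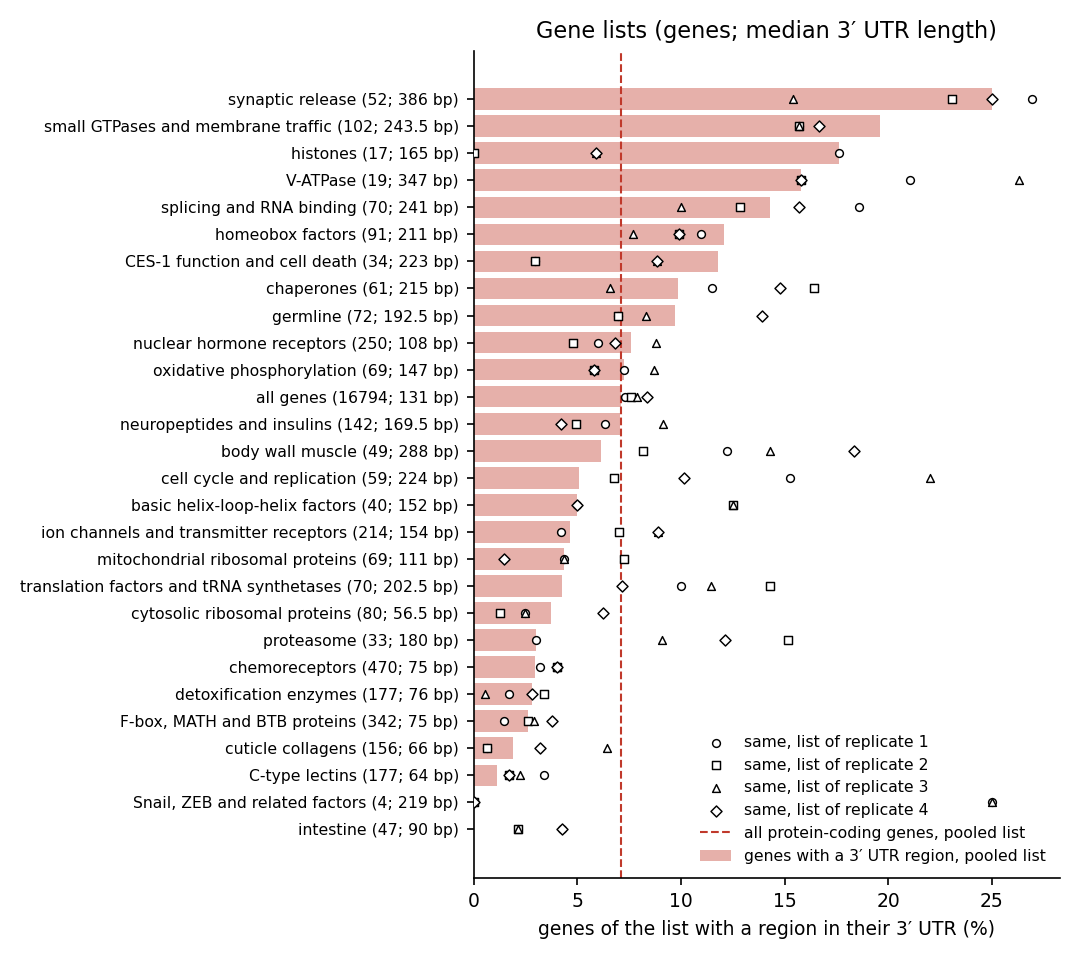
Share of the genes of each list with a weak region in the 3′ UTR, in percent; bars are the pooled list, open markers the list of each library, the dashed line is the 7.12% of all protein-coding genes, and the number of genes and the median UTR length stand in brackets. Synaptic release (13 of 52 genes) and membrane traffic (20 of 102) lie above the line in all 4 libraries, and collagens, lectins, chemoreceptors and F-box proteins below 7.12% in all of them.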

How the data were processed

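The authors deposited narrowPeak regions for each of the 4 libraries, for all pooled and after IDR. The ce11 lists were used as they stand and the ce10 lists were not used. The signal column is a score of the authors with no stated scale and was used only within a list. The deposited −log10 q-value column was read as such from the layout. Aligner, peak caller and IDR threshold are not stated (not given in the sources used here). Read depth is unknown, and 0 columns were left out. Each library list holds 30000 regions.

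Summits were placed on Ensembl release 115 of WBcel235, the same assembly as ce11, and coordinates are 1-based. A summit in UTRs of several genes counts for each gene. A region was found in a library when a library region overlapped it by at least 1 bp, and the strongest such region gave the rank. The background was every 10th base of 3′ UTR whose window of 344 bp overlapped no IDR peak, 330920 positions. Sequences came from RefSeq's copy of WBcel235. Differences per library were tested with an exact two-sided sign-flip permutation test over the 4 libraries, and the p-values of 7 tests were adjusted by Benjamini-Hochberg. There was no second group. Each p-value is the share of sign patterns of the library differences that give a mean at least as large in size. The spread between libraries is given by the SD. The members, lists and tests were chosen with earlier results of these data known.

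Named regions were the 12 of highest pooled signal, the 12 with the best worst rank in 4 libraries, 2 per gene list, the 6 strongest upstream of a same-strand gene, the 6 strongest convergent ones, ces-1 and unc-42; further list members and genes with several regions were named after their values were seen. Lists were drawn by symbol, so that chemoreceptors also hold genes that are not receptors, such as srgp-1. Alternatives covered the overlap rule, list length, summit or middle, neighbouring IDR peaks, gene types, windows and leaving out each library. Positions planted in annotated 3′ UTRs returned their gene in 2000 of 2000 cases. Distances equalled a brute-force search at 500 of 500 planted positions, as did overlap calls for 50 of 50 simulated intervals. These checks cover the lookup steps only, and no peak data were simulated. Python 3.11.15, numpy 2.4.6, pandas 2.3.3, scipy 1.17.1 and matplotlib 3.10.9 were used.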

Additional observations from a re-analysis of the deposited data

Results flagged for a closer look

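In 4 measures both libraries with a stated fragment size range (replicates 1 and 2) moved one way and both libraries sonicated with a microtip (replicates 3 and 4) the other; the difference was not tested, and source and preparation cannot be told apart. The share of 3′ UTR regions found in a library, minus that of all other weak regions, averaged −0.72 points in replicates 1 and 2 and 5.54 points in replicates 3 and 4. Minus that of weak intergenic regions it averaged −4.25 and 4.51 points. The median percentile of the matching library region, minus that of other weak regions, averaged −3.55 and 1.84 percentile points. The share of the libraries' own 3′ UTR regions within 500 bp of another gene's 5′ end, minus that of 3′ UTR positions, averaged 1.40 and −0.53 points. No sample stood apart from the other 3 in the 9 sets of library values examined.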

How the results depend on the processing

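With 4 libraries no test could reach 0.05, and read depth is unknown. The comparison with weak intergenic regions (0.13 points) had no stable sign: it was −0.87 with a stricter, reciprocal overlap, −1.27 with summits within 100 bp and −1.42 with the 15000 strongest regions of each library, and between −1.90 and 1.87 when 1 library was left out, negative without replicate 3 or 4. The percentile of the matching region (−0.85) ranged from −1.94 to 0.90, positive without replicate 2. The difference from all other weak regions (2.41) was 1.01, 0.28 and 1.16 under the same 3 settings, that from coding-exon regions (8.75) 6.25, 4.60 and 7.55, and that from intronic regions (3.92) 2.28, 1.29 and 3.08, the first 2 of these not positive in all 4 libraries (exact permutation p = 0.25 and 0.375). Leaving out 1 library gave 0.99 to 3.51 points against all other weak regions, 7.79 to 10.1 against coding-exon and 2.89 to 4.61 against intronic regions, 0.11 to 0.88 for the distance to the next gene (0.44, and 0.05 within 1000 bp) and 0.42 to 0.93 for the strongest against the weakest part of a list. Regions above the median signal of weak regions numbered 640 of 1235. The median signal was 8.85% above that of coding-exon regions, against 1.70% above all other weak regions, and differed by −2.12% from intergenic regions. The GC difference to 3′ UTR positions was 0.09 points, and −0.07 within 25 bp. With hosts from the lists of replicates 1 and 4, a choice made after the data were seen, the excess of promoter peaks was 2.95 and 2.85 points, against 2.44. The cause was not tested. No paired analysis was possible because the series has only 1 group.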
